A study of Caenorhabditis elegans with 4 samples.

Results

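The genes described here are the 4 B-type cyclin genes cyb-1, cyb-2.1, cyb-2.2 and cyb-3 and the 6 genes mcm-2 to mcm-7 of the replicative helicase in the nematode Caenorhabditis elegans. They were chosen by name, with earlier results of these data known. The probes of each were found through the sequence name given for every probe in the array files. All 10 genes were on the array, with 22 probes, and all 10 were among the 13685 genes tested. Their levels were compared between isp-1(qm150);ceh-23(ms23), called the double mutant below, and isp-1(qm150). Both genotypes therefore carried qm150, which alters the Rieske subunit of complex III in mitochondria, and only the double mutant had the ms23 mutation of ceh-23, a homeodomain gene. Neither a wild type nor a ceh-23 single mutant was on the arrays, and the mutations were not limited to 1 tissue. RNA came from populations of whole, synchronized mid-L4 larvae kept at 20 C on OP50 bacteria, so no tissue was separated.

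B-type cyclins bind and activate the kinase CDK-1, and this pair of proteins drives cells into mitosis. The MCM2-7 proteins form a ring that is loaded onto replication origins and then unwinds DNA ahead of the polymerases. In a C. elegans L4 larva most dividing cells are in the germ line, where a pool of mitotic cells at the distal end feeds the meiotic part of the gonad, while some somatic lineages, such as those of the vulva, also divide. Growing oocytes store cyclin and replication transcripts for the first embryonic divisions. The comparison addresses what CEH-23 contributes to the transcriptome under mitochondrial stress.

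Each of the 4 arrays held both genotypes in different dyes, Cy5 and Cy3. They came from 3 biological replicates, and replicate 1 was hybridised a second time with the dyes exchanged. The values of these 2 arrays were averaged, so n = 3 for every mean ratio, and this small number limits how precise each value is. The share of spots well above background ran from 62.4% to 77.5% over the arrays for the double mutant, and from 62.2% to 78.4% for isp-1. The single ceh-23 probe was well above background on 2 arrays in each genotype and had a log2 ratio of -0.09 (SD 0.10, n = 3). Where it lies relative to the ms23 lesion is not stated, so it checks neither genotype. Ratios are given as double mutant over isp-1 on the log2 scale, so a negative value is a lower level in the double mutant.

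All 10 genes had a lower mean level in the double mutant, as did 7076 of the 13685 genes tested. The 4 cyclins were 2.04-fold to 2.52-fold lower and the 6 MCM genes 1.37-fold to 1.60-fold lower. In limma, 3 of the 10 genes (cyb-1, cyb-2.2 and cyb-3) fell at an adjusted p of 0.05, a threshold at which 2.59% of all genes tested fell and 0.775% rose. These 3 adjusted p-values were all 0.0495, and of the 461 genes past the threshold 459 lay between 0.049 and 0.05, so a small shift moves genes across it. The handling of outlier spots behind these counts was picked from 8 combinations after their counts had been seen. The combination computed first, with outlier spots kept in the loess fit, gave 2 genes and 0 members past the threshold in limma, with 9 members at an unadjusted p under 0.05. The call of the 3 members therefore depends on that choice. The count of members that fell was 1 when replicate 1 was left out, where 0.687% of all genes fell. It was 0 when replicate 2 was left out, with 8 members at an unadjusted p under 0.05 in limma and 0.00725% of all genes past the threshold, and 10 when replicate 3 was left out, where 28.6% of all genes fell. At an unadjusted p of 0.05, 9 of the 10 members were lower, against 22.3% of all genes. Counts that use no variance estimate gave 9 members with negative ratios in all 3 replicates, where the share of all genes was 30.6%. A mean at least 2-fold lower was found for the 4 cyclins and for no MCM gene, and for 2.12% of all genes. Of the members, 7 were negative on all 4 arrays and at least 1.5-fold lower on average, against 7.89% of all genes. The median log2 ratio was -0.65 over the members and -0.01 over all genes tested. Because the members were chosen with earlier results of these data known, these shares describe them and are no independent support.

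**Figure D1:**
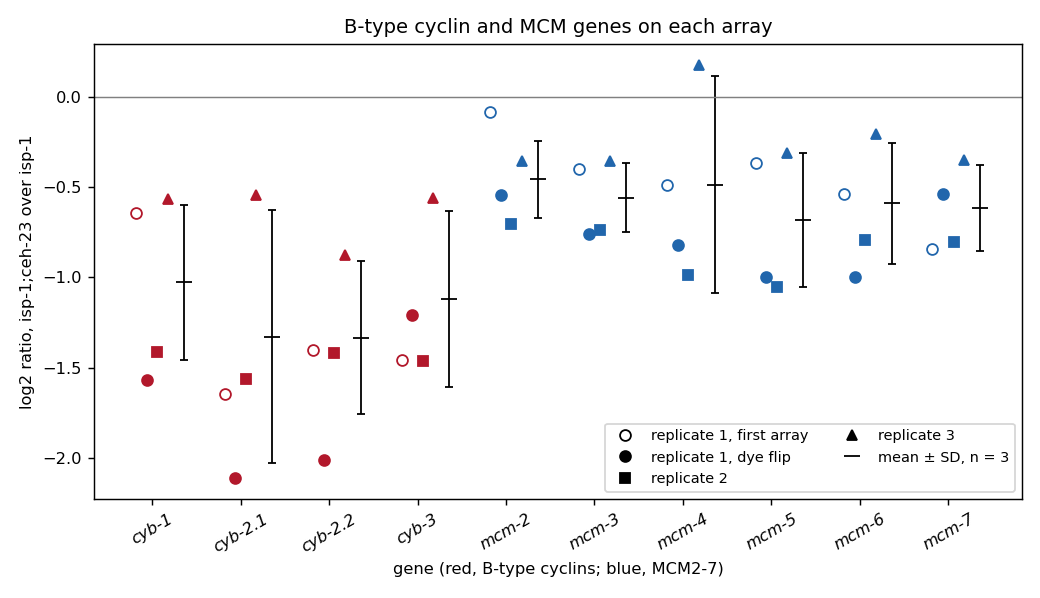
Log2 ratio of double mutant over isp-1 (vertical axis) for each of the 10 genes (horizontal axis) on each array, with the mean and SD over 3 replicates beside the points. All points lie below 0 except mcm-4 in replicate 3, at 0.18.

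The gene cyb-1 (ZC168.4, chromosome IV) encodes a B1-type cyclin and has 1 probe. Its processed signal, which the authors' scanner software gives after background subtraction and dye normalization, was 4876 on the first array of replicate 1 and 4271 on its dye flip in the double mutant, with 3383 in replicate 2 and 3050 in replicate 3. In isp-1 the same probe gave 9594, 10800, 8361 and 4313 in this order. Ratios were computed from the median signals after background correction and loess, not from these processed signals. The double mutant was lower on each array, although its highest signal was above the lowest signal of isp-1, which came from replicate 3. The mean log2 ratio was -1.03 (SD 0.43, SE 0.17, n = 3, adjusted p = 0.0495). Over the arrays of replicate 1 the ratio after loess was -0.64 on the first and -1.57 on the dye flip. This difference between the 2 arrays was larger than for any of the other 9 genes. With 1 array per dye order, an effect of the dyes cannot be told apart from a difference between arrays.

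The genes cyb-2.1 (Y43E12A.1, chromosome IV) and cyb-2.2 (H31G24.4, chromosome I) are closely related copies, each with 2 probes. Whether these probes tell the copies apart was not tested, so their values may not be independent. The first cyb-2.2 probe gave 832, 684, 1160 and 1190 in the double mutant on the first array, the dye flip, replicate 2 and replicate 3. The same probe gave 2963, 2819, 3356 and 2390 in isp-1. For both probes of both genes the highest signal of the double mutant was below the lowest of isp-1. The log2 ratio of cyb-2.2 was -1.71 in replicate 1, -1.42 in replicate 2 and -0.88 in replicate 3, and its mean was the lowest of the 10 genes, at -1.33 (SD 0.42, SE 0.17, adjusted p = 0.0495). In the order of all tested genes from the lowest ratio up, cyb-2.2 was number 116. The mean of cyb-2.1 was nearly the same, at -1.33 (SD 0.70, SE 0.25), but its replicates spread more widely, with -1.88, -1.56 and -0.54, and its adjusted p was 0.0502. With slide as a block, where replicate 1 was alone on its slide, the mean of cyb-2.1 was -1.465. Over the alternatives its adjusted p in limma ran from 7.87e-06 to 0.456. The low end came from leaving out replicate 3, where 28.6% of all genes fell, and the high end from median centring.

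The gene cyb-3 (T06E6.2, chromosome V) encodes a B3-type cyclin, which acts together with the B1 type in the divisions of the C. elegans embryo. Its brightest probe gave 2352, 2644, 2391 and 2453 in the double mutant and 7591, 7714, 7412 and 3561 in isp-1, in the same order of arrays. For this probe the signals of the double mutant were nearly level over the arrays, while that of isp-1 was lowest in replicate 3. Another cyb-3 probe ran in the double mutant from 1313 in replicate 3 to 1949 in replicate 2. The remaining one ran from 827 in replicate 3 to 1111 on the dye flip. None of the 3 cyb-3 probes overlapped between the genotypes. The log2 ratio of the gene was -1.33, -1.46 and -0.56 in the 3 replicates, with a mean of -1.12 (SD 0.49, SE 0.19, adjusted p = 0.0495). Over the 22 member probes, 7 did not overlap between the genotypes, all of them cyclin probes, and 5.45% of all named probes kept by the filter were lower in this way.

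**Figure D2:**
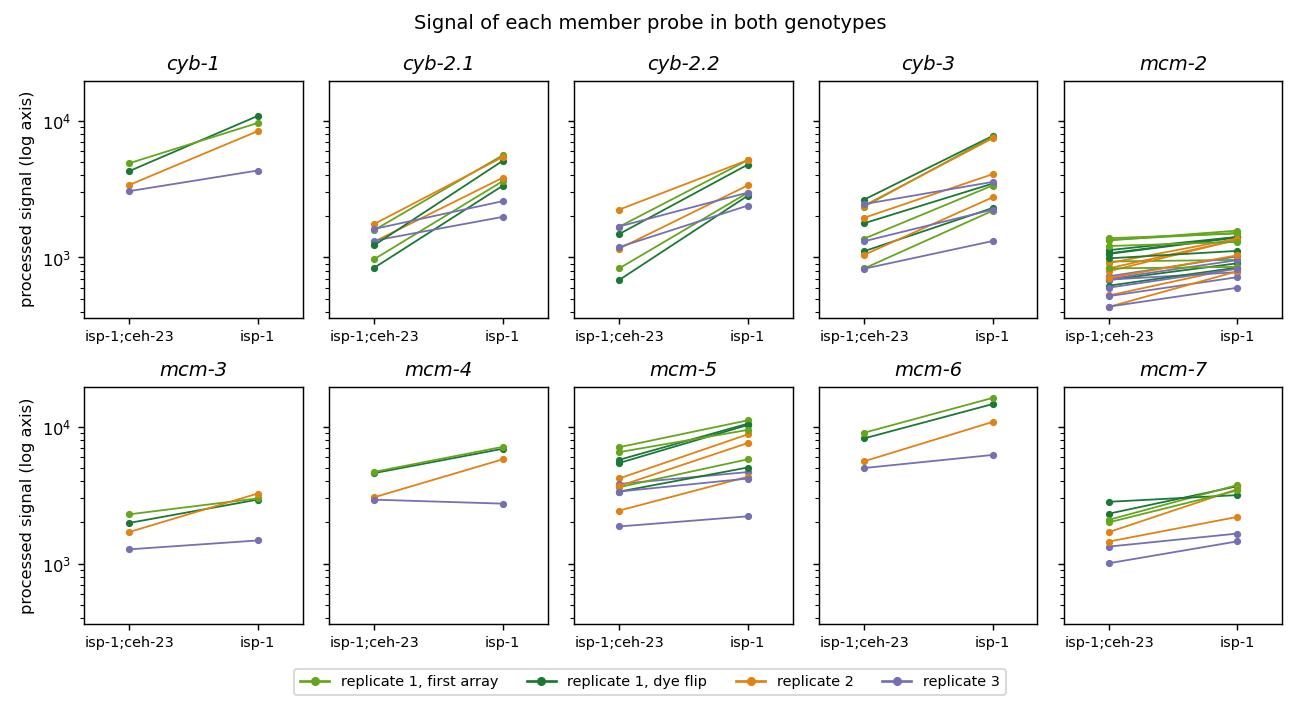
Processed signal (vertical log axis) of each probe of the 10 genes in the double mutant (left) and isp-1 (right), with a line joining the values of 1 probe on 1 array. The lines run upward to isp-1 in 87 of 88 cases, the exception being mcm-4 in replicate 3, and the slopes are steeper for the cyclins than for the MCM genes.

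The 6 MCM genes encode the subunits of the helicase ring, and none of them passed the threshold as reported. Replicates 2 and 3 shared a slide and replicate 1 had its own, so a slide term cannot be told apart from replicate 1. With slide as a block the means of mcm-5, mcm-6 and mcm-7 were -0.68, -0.64 and -0.64. Over all alternatives the adjusted p in limma ran from 0.000397 to 0.456 for mcm-5, from 0.00034 to 0.471 for mcm-6 and from 0.000469 to 0.456 for mcm-7. Each low end came from leaving out replicate 3, where 28.6% of all genes fell, and each high end from median centring. The lowest mean belonged to mcm-5 (R10E4.4, chromosome III), with 3 probes and log2 ratios of -0.68, -1.05 and -0.31 in replicates 1, 2 and 3. Its mean was -0.68 (SD 0.37, SE 0.15, adjusted p = 0.0563). The mcm-7 gene (F32D1.10, chromosome V) had -0.69, -0.81 and -0.35, with a mean of -0.62 (SD 0.24, adjusted p = 0.0502). Both had negative ratios on all 4 arrays and sat close to, but not past, the threshold.

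The single mcm-6 probe (ZK632.1, chromosome III) was the brightest of the MCM probes. It gave 9033, 8211, 5587 and 4991 in the double mutant and 16220, 14620, 10830 and 6217 in isp-1 on the first array, the dye flip, replicate 2 and replicate 3. The double mutant was lower on each array, but the ranges overlapped, since signals of both genotypes were lower in replicate 3. The mean log2 ratio of mcm-6 was -0.59 (SD 0.33, adjusted p = 0.0629). The single mcm-3 probe (C25D7.6, chromosome V) gave 2291, 1981, 1701 and 1271 in the double mutant and 2994, 2935, 3247 and 1476 in isp-1. Its mean log2 ratio was -0.56 (SD 0.19, adjusted p = 0.0505), with the smallest SD of the 10 genes.

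The mcm-4 gene (Y39G10AR.14, chromosome I), also known as lin-6, was the only member whose direction differed between replicates. Its single probe gave 4679, 4579, 3051 and 2931 in the double mutant and 7124, 6894, 5774 and 2742 in isp-1. After loess the log2 ratios of this probe were -0.65 and -0.99 in replicates 1 and 2 but 0.18 in replicate 3, and the mean was -0.49 (SD 0.60, adjusted p = 0.165). Without replicate 3 the mean was -0.82 (adjusted p = 0.000477), and without replicate 2 it was -0.24 (adjusted p = 0.57).

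The mcm-2 gene (Y17G7B.5, chromosome II) had the most probes, 6, and the smallest difference. Its gene ratios were -0.31, -0.70 and -0.35 in replicates 1, 2 and 3, and the mean was -0.46 (SD 0.21, adjusted p = 0.0664). The means of the 6 probes ran from -0.51 to -0.36. On the first array of replicate 1 a pair of these probes had positive ratios of 0.09 and 0.10, and these were, with mcm-4 in replicate 3, the only positive ratios among the 88 ratios of member probes.

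The 10 genes fell into an order from cyb-2.2 through cyb-2.1, cyb-3 and cyb-1 to mcm-5, mcm-7, mcm-6, mcm-3, mcm-4 and mcm-2. No gap between neighbours in this order exceeded the smaller of their 2 SDs over replicates. The cyclins as a class nevertheless stood below the MCM genes within each replicate. In replicate 1 the cyclin ratios ran from -1.88 to -1.11 and the MCM ratios from -0.77 to -0.31. In replicate 2 the ranges were -1.56 to -1.41 for the cyclins and -1.05 to -0.70 for the MCM genes. In replicate 3 they were -0.88 to -0.54 and -0.36 to 0.18. Every cyclin mean was also below every MCM mean under all 22 other processing settings. On single arrays 1 pair went the other way, cyb-1 at -0.64 and mcm-7 at -0.84 on the first array of replicate 1. The cyclin mean minus the MCM mean was -0.89, -0.62 and -0.40 in the 3 replicates. With 3 replicates an exact test of signs cannot go below a two-sided p of 0.25, so this difference is given without a test.

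Replicate 3 had the least negative ratio in 9 of the 10 genes, the exception being mcm-2, for which it was replicate 1. The SD of the ratios of all genes was 0.49 in replicate 1, 0.49 in replicate 2 and 0.24 in replicate 3, so differences between the genotypes were smaller in replicate 3 over the whole array. Among all genes with a negative ratio in each replicate, replicate 3 was the least negative in 79.9%. The barcodes put replicate 1 on a slide of its own and the other replicates together on another slide. The median member ratio was -0.73 within the first slide and -0.63 within the second. On the second slide it was -1.02 in replicate 2 and -0.36 in replicate 3.

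**Figure D3:**
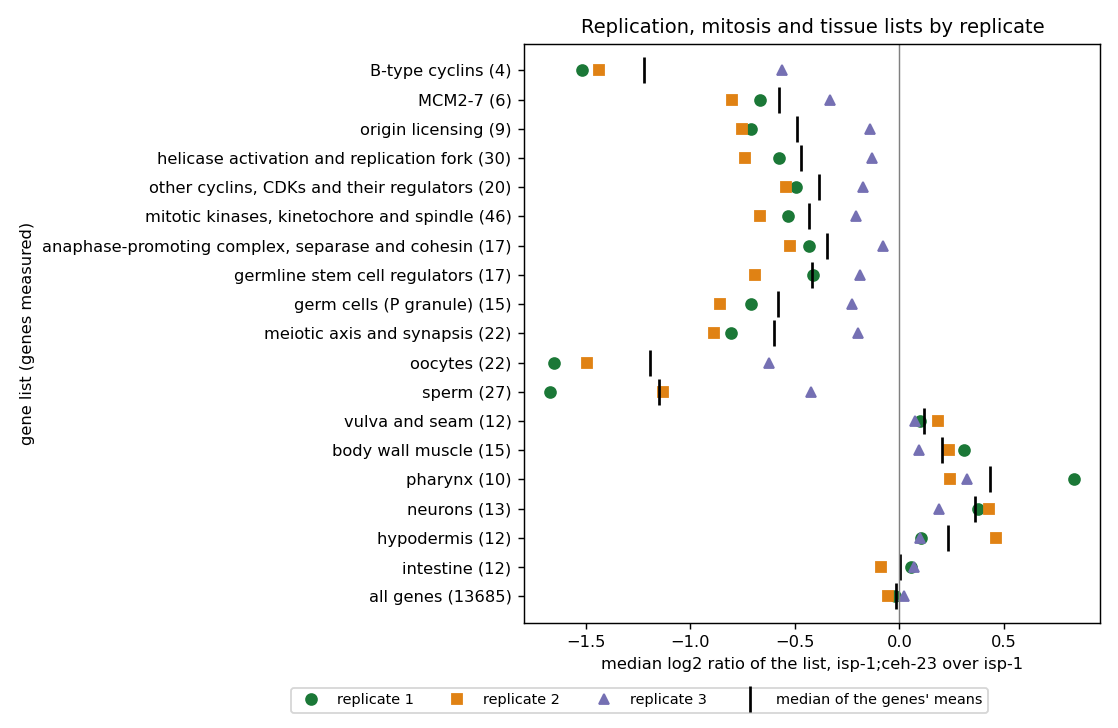
Median log2 ratio (horizontal axis) of each gene list (vertical axis, with the number of genes measured) in replicates 1, 2 and 3, and the median of the genes' means as a bar. Lists of replication, mitosis and germ cells lie to the left of 0 and those of vulva and seam, muscle, pharynx, neurons and hypodermis to the right, with replicate 3 nearest to 0 in each list of replication, mitosis and germ cells.

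None of the other measured genes of DNA replication passed the threshold in limma. At an unadjusted p of 0.05, 7 of 9 licensing genes and 21 of 30 fork genes were lower, against 22.3% of all genes. All 9 measured genes of the origin licensing list had negative means (7076 of all 13685 genes did), with a median of -0.49. This list also names the licensing regulators gmn-1 and cdt-2, and mcm-10. The origin recognition subunits orc-5 and orc-1 had ratios of -0.69 (SD 0.27) and -0.66 (SD 0.32), with adjusted p-values of 0.0502 and 0.0537. The MCM loader cdc-6 had -0.48 (SD 0.23) and mcm-10, a fork protein that is not part of the ring, had -0.59 (SD 0.39). The 30 measured genes of helicase activation and of the fork also had negative means, with a median of -0.47 and a range of -1.02 to -0.14. Examples were the clamp loader subunit rfc-4 at -0.60 (SD 0.21), the ribonucleotide reductase subunit rnr-1 at -0.49 (SD 0.17) and the GINS subunit psf-3 at -0.68 (SD 0.41). The MCM medians were -0.67, -0.80 and -0.33 in replicates 1, 2 and 3, against -0.57, -0.74 and -0.13 for these fork genes.

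Among 20 other cyclins, CDKs and their regulators, 1 gene fell, where 2.59% of all genes fell. The other 19 did not pass and the median was -0.39. The gene that fell was cya-1, for an A-type cyclin, at -0.55 (SD 0.08, adjusted p = 0.0495). The kinase gene cdk-1, whose product is the partner of the B-type cyclins, had -0.73 (SD 0.34, adjusted p = 0.0502). The CDK inhibitor gene cki-2 had -0.54 (SD 0.13), and cdc-25.3, of the phosphatase family that activates CDK-1, had -1.70 (SD 0.97). This list was the only one of replication or mitosis with members above 0, and its highest value was 0.36.

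All 46 measured genes of mitotic kinases, kinetochore and spindle had negative means (7076 of all 13685 genes did), with a median of -0.43. Of these, 6 fell and 40 did not pass. Among the genes that fell were the spindle checkpoint kinase gene bub-1 at -0.68 (SD 0.18), the kinesin gene klp-15, which has a near-identical copy in klp-16, at -0.78 (SD 0.28), the centriole duplication kinase gene zyg-1 at -0.60 (SD 0.15) and air-1, for the Aurora A kinase, at -0.78 (SD 0.32). Of 17 genes of the anaphase-promoting complex, separase and cohesin, all had negative means and 1 fell, with a median of -0.35. This was ify-1, which encodes securin, the inhibitor of separase, at -0.86 (SD 0.28). The CDC20 homologue fzy-1, which directs the complex to mitotic cyclins, had -0.78 (SD 0.46, adjusted p = 0.057), and the separase gene sep-1 had -0.67 (SD 0.40). Every gene that fell in these lists had an adjusted p between 0.049 and 0.05. Over the 299 genes measured in all the lists described here, 43 fell as reported, where 2.59% of all genes fell. In the combination computed first, with outlier spots kept in the loess fit only, 0 of these 299 genes fell (0.00731% of all genes). The count was also 0 with median centring, without background correction, without a filter and with outlier spots kept. Without replicate 1 the count was 10 (0.687% of all genes), without replicate 2 it was 0 (0.00725%) and without replicate 3 it was 198 (28.6%), so the counts moved with those over the whole array.

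Among markers of germ cells, oocytes and sperm, the oocyte list held the most genes that fell as reported and the meiotic list none. Of all genes tested 2.59% fell. In whole animals, fewer cells of a type and less RNA per cell cannot be told apart. Of 17 genes listed as germline stem cell regulators, 3 fell and 14 did not pass, with a median of -0.42 and a highest value of 0.03. The listed genes glp-1, lst-1, sygl-1, fbf-1 and fbf-2 were not among the 3 that fell. The 3 were nos-2 at -1.83 (SD 0.81), puf-3 at -1.34 (SD 0.58) and puf-11 at -1.24 (SD 0.55), a Nanos homologue and a pair of closely related Pumilio-family RNA-binding proteins, whose probes may not tell them apart. Of 15 P granule and germline Argonaute genes, 2 fell and 13 did not pass, with a median of -0.58. Of 22 genes of the meiotic axis and synapsis none passed in limma, and the median was -0.60. At an unadjusted p of 0.05, 21 of them were lower, against 22.3% of all genes.

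The cyclin median was -1.22, and that of the oocyte list was -1.19. Of the 22 measured oocyte genes 18 fell and 4 did not pass, where 2.59% of all genes fell. Examples were the eggshell genes perm-4 at -1.55 (SD 0.49) and perm-2 at -1.36 (SD 0.44), and puf-5 at -1.90 (SD 0.71). The summed processed signal of the oocyte probes had a range over the arrays of 94500 to 130000 in the double mutant, against 218000 to 424000 in isp-1, with every probe well above background at least once. Of 27 measured sperm genes 11 fell and 16 did not pass, with a median of -1.15, and their summed signal ran from 588000 to 767000 in the double mutant, against 1050000 to 2380000 in isp-1. The part of oocyte and sperm RNA in the cyclin and MCM ratios was not tested. The cyclin medians were -1.52, -1.44 and -0.56 in replicates 1, 2 and 3, and the oocyte medians were -1.65, -1.49 and -0.62. Those of the sperm list were -1.67, -1.13 and -0.42 in the same order.

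The medians of 5 lists of somatic tissues were above 0. The median was 0.12 for 12 vulva and seam genes, 0.20 for 15 body wall muscle genes, 0.43 for 10 pharynx genes, 0.36 for 13 neuronal genes and 0.23 for 12 hypodermis genes, and none of these 62 genes passed in limma. At an unadjusted p of 0.05, 24 of them were higher and 3 lower, where 13.6% of all genes were higher and 22.3% lower. These medians stayed above 0 under all 22 alternatives, but that of vulva and seam was 0.0748 and 0.0743 when replicate 1 or replicate 2 was left out, and 0.196 when replicate 3 was. That of body wall muscle was 0.131 without replicate 1, and that of pharynx ran from 0.287 to 0.783 over the alternatives. The intestine list had a median of 0.00 and included the yolk protein genes vit-2 at -2.01 (SD 1.12) and vit-6 at -1.39 (SD 0.65), of which vit-6 fell. Other genes of this list went the other way, with ges-1 at 0.38 (SD 0.16) and elt-2 at 0.21 (SD 0.09). In the hypodermis list the adult cuticle collagen gene col-19 had -1.56 (SD 0.87, adjusted p = 0.0502). In the same list dpy-3 had -0.46 (SD 0.19), dpy-10 had 0.61 (SD 0.35) and dpy-8 had 0.56 (SD 0.16). Negative means were found for 4 of the 12 hypodermis genes and 5 of the 12 intestine genes. Yolk protein genes and col-19 normally come on at the turn to adulthood. Their ratios were negative in the same samples, and a difference in stage between the genotypes cannot be told apart from one in cell division at a given stage.

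The genes whose replicate profile was closest to the mean profile of the 10 members (-0.97, -1.09 and -0.40) were, over 3 replicates, xnd-1, pitr-3, spe-54, ZK858.2 and K05F1.9. Their root mean square differences from it were between 0.01 and 0.04 log2 units. The nearest, xnd-1, had ratios of -0.96, -1.09 and -0.38, and spe-54 was the only one of the 5 that passed the threshold (mean -0.85, SD 0.38, adjusted p = 0.0495).

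**Figure D4:**
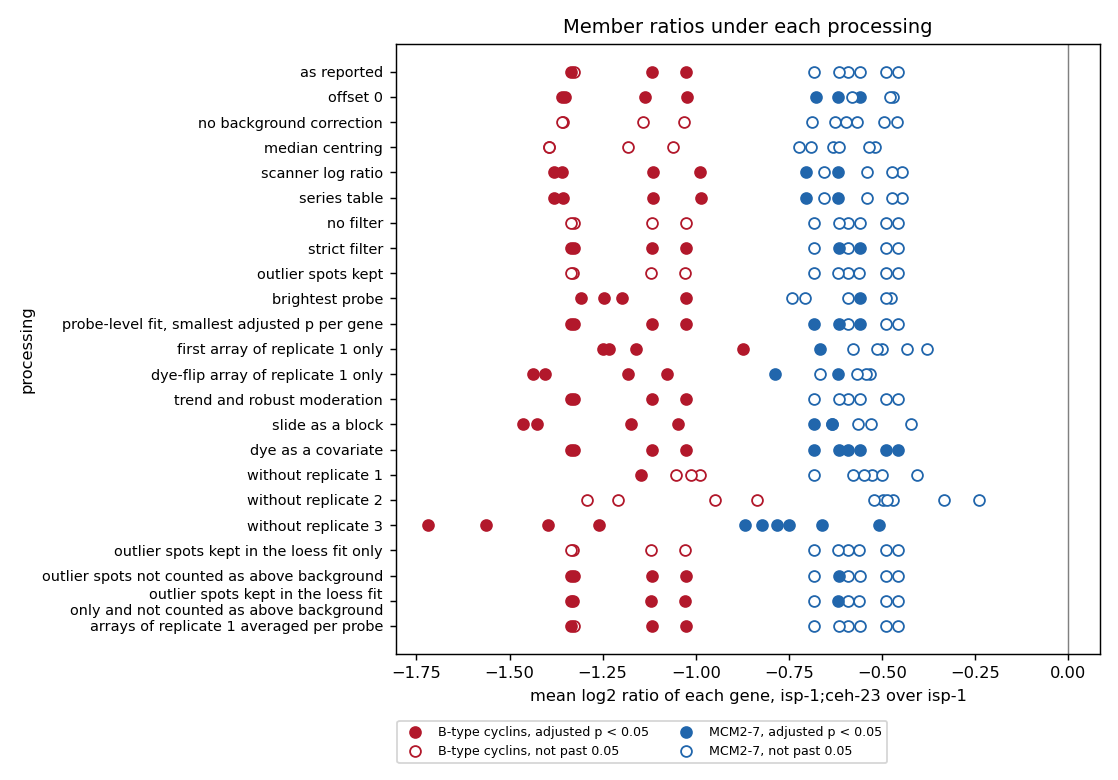
Mean log2 ratio (horizontal axis) of the 4 cyclins (red) and 6 MCM genes (blue) under the reported processing and 22 alternatives (vertical axis), with filled points for an adjusted p under 0.05. Every point lies below 0, while the number of filled points ranges from 0 to 10.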

How the data were processed

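Transcripts of both genotypes were measured on 4 Agilent 2-colour arrays. Per the file headers, the authors scanned and quantified them with Feature Extraction 10.5.1.1 (protocol GE2_105_Dec08, design build ce4). The deposited intensity values are median signals and local backgrounds, which were the input to the fit, and processed signals, which are shown per probe. The deposited log10 ratios of the scanner and of the series table, Cy5 over Cy3, served as alternatives, and the 2 differed by less than 0.005. Other deposited columns used are flags of 0 or 1 for spots above background and outlier spots.

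The analysis was run with limma 3.58.1 under R 4.3.3. Background correction was by normexp (offset 50) and within-array normalization by loess, with weight 0 for control and outlier spots, and outlier spots were then left out. How outlier spots enter loess was not fixed in advance: 8 combinations of outlier handling and averaging were computed, they gave 2, 461, 644 or 645 genes past the threshold, and the one giving 461 was kept because this was the count in an earlier processing of these data. The first one computed, with outlier spots kept in loess, gave 2. Ratios were turned by the dyes in the labels. A probe had to be well above background in all 3 replicates in one of the genotypes or the other, and a gene was the mean of its probes. The 3 replicate values of a gene were tested against 0 with limma's moderated test (two-sided), and p-values were adjusted by Benjamini and Hochberg's method over the 13685 genes. Names came from the RefSeq table of WBcel235, by sequence name for 35017 of 43803 spots and by accession for 356, and its coordinates were not used. The labels call the replicates biological but give no source, and the fit was tested on simulated data.

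The members and lists were chosen with earlier results of these data known. In each list the genes given with values were among the 4 with the smallest unadjusted p in limma. Alternatives were other background corrections, normalizations, filters, probe rules and moderation, averaging, slide and dye terms, and leaving out each replicate. Of the names on the lists, 7 had no match in the table. No probe or promoter sequences were used here.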

Additional observations from a re-analysis of the deposited data

How the results depend on the processing

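All 10 members kept a negative mean under each of the 22 alternatives, and the median log2 ratio of the members stayed between -0.84 (without replicate 3) and -0.51 (without replicate 2). The adjusted p-values did not hold. Where 461 genes and 3 members passed as reported, the counts were 0 and 0 with median centring, 2 and 0 without background correction, 1 and 0 without a filter on dim probes, 1 and 0 with outlier spots kept, and 2 and 0 with outlier spots kept in the loess fit only. The counts were higher with an offset of 0 (1485 genes and 7 members), the scanner's log ratio (1734 and 6), the series table (1736 and 6), the strict filter (749 and 6), the brightest probe (963 and 5), a probe-level fit (1379 and 7), the first array of replicate 1 alone (777 and 5), its dye flip alone (733 and 6), slide as a block (1264 and 7) and dye as a covariate (4151 and 10). With outlier spots not counted as above background 644 genes and 5 members passed, and 645 and 5 with these spots also kept in loess. Averaging replicate 1 per probe gave 461 and 3. These settings, and the reported one (weight 0 in loess), were chosen after seeing the data: of 8 combinations computed, the one reported was kept because its 461 genes equalled an earlier count, while the one computed first gave 2 genes and 0 members. Trend and robust moderation gave 486 genes and 4 members. Leaving out 1 replicate gave between 1 and 5938 genes and between 0 and 10 members. The balance of directions was 355 lower and 106 higher as reported and 976 lower and 758 higher from the scanner's log ratio. With median centring 4 cyclins and 2 MCM genes had an unadjusted p under 0.05. The cause of these changes was not tested. A random block for the arrays of replicate 1 could not be fitted, so the dye term was fitted to the 3 replicate values. Over these values the dye term is the difference between replicates 2 and 3, and the slide term sets replicate 1 against the others. Neither term can be told apart from a difference between replicates. The tested ratios are within arrays, so the reported fit already pairs the genotypes by replicate, and no separate replicate block applies. All 22 member probes were well above background in both genotypes on all arrays.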
